A study of Rattus norvegicus with 58 samples.

Results

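Gastrocnemius and triceps brachii of the same early-sarcopenic rats were compared at 18 months of age. The libraries were chosen by their labels alone, as the 10 gastrocnemius and 10 triceps libraries of the 10 rats numbered 11 to 20, which are 20 of the 58 libraries and 10 of the 29 rats sequenced. All animals were male Wistar rats, and the labels and methods name no genetic change and no treatment. The other libraries came from both muscles of 10 adult rats, aged 8 months, and of 9 sarcopenic rats, aged 24 months. Each rat was sampled at 1 age, so the muscle difference at 8, 18 and 24 months rests on different animals.

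The gastrocnemius is a calf muscle of the hindlimb and the triceps brachii an elbow extensor of the forelimb, and hindlimb muscles of rats are known to lose mass earlier in ageing than forelimb muscles. A muscle fibre that loses contact with its motor nerve is known to express acetylcholine receptor subunits and adhesion molecules along its length, together with cell cycle inhibitors such as p21 and with proteins of the developing sarcomere. Fast fibres depend on glycolysis, and limb muscles keep the expression of homeobox genes that set their position in the embryo. The comparison asks which of these programmes differ between a susceptible and a resistant muscle of the same animal early in sarcopenia.

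The gastrocnemius libraries held 12767191 to 32351192 reads on genes and the triceps libraries 12907761 to 28629700. Levels are given as TMM CPM, the reads of a gene relative to its library's total (CPM) after scaling of the totals by edgeR's trimmed mean factors (TMM), which lay between 0.924 and 1.14 in gastrocnemius and between 0.838 and 1.04 in triceps. TMM CPM compares libraries for 1 gene and not genes with each other, as no gene lengths were used. The 10 most abundant genes held 22.1 ± 2.12% of all reads in gastrocnemius and 22.7 ± 1.57% in triceps (SD, n = 10 rats; p = 0.482, exact two-sided sign-flip test over rats). The 8 mitochondrially encoded genes with a symbol took 9.14 ± 2.41% and 7.75 ± 1.16% (p = 0.158, exact test, adjusted p = 0.472 over the 3 shares tested). The share of Hba1 and Hba2 was 0.0133 ± 0.00424% in gastrocnemius and 0.0109 ± 0.00377% in triceps (p = 0.314, exact test, adjusted p = 0.472). All 10 measured markers of skeletal muscle had reads in both muscles, with a sum of 16284 to 39159 TMM CPM in gastrocnemius and 34393 to 52936 in triceps. Of these 10, Klhl41 was called higher in gastrocnemius, though not with the libraries of 18 months alone (adjusted p = 0.0698, edgeR), and 6 were called higher in triceps.

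Of 14947 genes tested, 2692 (18%) differed between the muscles of early-sarcopenic rats, 1425 with a higher level in gastrocnemius (9.53%) and 1267 with a higher level in triceps (8.48%). The test was edgeR's quasi-likelihood F test with a term for each rat, and genes with a Benjamini-Hochberg adjusted p under 0.05 were called. Differences are log2 values of gastrocnemius minus triceps, on 10 rats per muscle, and the adjusted p-values below come from this fit. The SE given with a difference is derived from the test, as the size of the difference divided by the square root of F. Large differences lay mostly on 1 side: 373 genes were called and more than 2-fold higher in gastrocnemius (2.5% of genes tested), and 56 were called and more than 2-fold higher in triceps (0.375%). In 54 genes every gastrocnemius library lay above every triceps library (0.361%), and in 26 genes the reverse held (0.174%). With library totals in place of the TMM factors, the split of the 2895 calls was 2119 to 776, and the median log2 difference of all genes moved from 0.02 to 0.11. Symbols were at hand for 2161 of the genes tested, 831 of them called. The study selected these 2161 on the same libraries, for a different change with age in the 2 muscles, so their counts are no independent evidence of a muscle difference. Of the 2161, 397 were called higher in gastrocnemius (18.4%) and 434 higher in triceps (20.1%). All genes in the lists that follow carry a symbol, so the share of a list called is read against these 2 values.

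Among genes of the postsynaptic side of the neuromuscular junction, most of those with a symbol were higher in gastrocnemius. Listed genes without a symbol were not examined. Chrna1 encodes the alpha subunit of the muscle acetylcholine receptor, Chrnb1 the beta subunit and Chrne the epsilon subunit of the adult receptor. Musk is the receptor kinase that clusters these receptors, and Erbb2 is a subunit of receptors for neuregulin. Of 15 listed genes, these 5 carried a symbol and were tested, and 4 of the 5 were called higher in gastrocnemius, against 9.53% of all genes and 18.4% of genes with a symbol. A list of 5 genes is small for such a comparison. The number called was 3 with the libraries of 18 months alone and 3 with no block for the rat. The median log2 difference of the 5 genes was 1.83, against 0.02 over all genes.

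The bases upstream of the 5 junction genes were searched because 4 of them were called in 1 direction, although with differences of unlike size. The windows printed are the 4 that held a marked match. They include that of Chrnb1, which was not called, and leave out that of Erbb2, which was called. Each run holds the 250 bases before the annotated start in RefSeq on GRCr8, a newer build than the one the reads were aligned to, written 5′ to 3′ on the strand of the gene. Capitals mark CAGCTG, a form of the E-box CANNTG that reads the same on both strands, and CCGGAA, the core of the N-box known from junction genes, which was searched on both strands.
Chrna1, minus strand of chr3:78877354-78877603: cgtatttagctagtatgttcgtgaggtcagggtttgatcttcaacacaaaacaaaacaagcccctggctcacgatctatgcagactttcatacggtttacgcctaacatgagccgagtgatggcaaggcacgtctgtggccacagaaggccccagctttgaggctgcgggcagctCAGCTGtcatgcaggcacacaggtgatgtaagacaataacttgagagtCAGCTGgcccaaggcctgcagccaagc
Musk, plus strand of chr5:77853486-77853735: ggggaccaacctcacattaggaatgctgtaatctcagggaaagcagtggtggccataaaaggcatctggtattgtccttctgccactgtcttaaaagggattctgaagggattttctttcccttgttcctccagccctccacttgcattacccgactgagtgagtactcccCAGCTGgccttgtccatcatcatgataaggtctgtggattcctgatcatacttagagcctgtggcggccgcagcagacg
Chrne, minus strand of chr10:55834155-55834404: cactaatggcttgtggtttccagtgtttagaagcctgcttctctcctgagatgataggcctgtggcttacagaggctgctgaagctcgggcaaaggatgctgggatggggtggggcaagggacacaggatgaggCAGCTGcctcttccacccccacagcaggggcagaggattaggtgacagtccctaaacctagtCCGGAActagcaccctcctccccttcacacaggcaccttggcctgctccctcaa
Chrnb1, minus strand of chr10:55015108-55015357: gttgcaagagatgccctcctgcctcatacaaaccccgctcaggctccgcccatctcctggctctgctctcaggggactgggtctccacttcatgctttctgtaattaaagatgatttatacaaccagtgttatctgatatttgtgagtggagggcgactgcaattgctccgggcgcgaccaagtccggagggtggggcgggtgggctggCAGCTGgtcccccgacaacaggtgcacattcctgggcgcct
CAGCTG stood 75 and 27 bases before the start of Chrna1, 79 before that of Musk, 116 before that of Chrne and 41 before that of Chrnb1. CCGGAA stood 54 bases before the start of Chrne. Neither was found in the 250 bases of Erbb2, which held 1 CANNTG; each of the other windows held at least 1. Over 33469 rat promoters of the same length, CAGCTG occurred in 12%, CANNTG in 65.5% and CCGGAA in 12.6%. CAGCTG occurred in 16.1% of 274 promoters of genes called higher in gastrocnemius, in 18.1% of 282 promoters of genes called higher in triceps and in 13% of 878 promoters of genes with a symbol that were not called. These matches describe the letters in the windows and were set against no measure of binding.

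Chrna1 lay at 13.0 to 139 TMM CPM (median 44.8) in the 10 gastrocnemius libraries and at 2.03 to 8.67 (median 3.93) in the 10 triceps libraries. The muscles did not overlap, and the difference was 3.42 ± 0.46 (adjusted p = 4.03e-06). The highest gastrocnemius values, 138 and 139 TMM CPM, came from rats 15 and 20. Musk lay at 4.80 to 19.9 TMM CPM (median 9.90) against 1.78 to 4.61 (median 2.66), again without overlap, and differed by 1.83 ± 0.20 (adjusted p = 2.10e-07). For Erbb2 the values were 1.33 to 5.36 TMM CPM (median 2.69) and 0.292 to 1.37 (median 0.768). These ranges touched, but each of the 10 rats had the higher level in gastrocnemius, with a difference of 1.99 ± 0.24 (adjusted p = 6.92e-07).

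Chrne and Chrnb1 differed less. Chrne lay at 9.83 to 28.4 TMM CPM (median 11.9) in gastrocnemius and at 1.10 to 16.0 (median 7.26) in triceps, a difference of 0.94 ± 0.28 (adjusted p = 0.0185) with wide overlap. Rats 13 and 14 had the largest differences of Chrne, 2.88 and 2.43 on the scale of log2(TMM CPM + 0.5), and rats 15, 19 and 20 had −0.02, −0.35 and 0.03. Without rat 13 the adjusted p was 0.0528 and without rat 14 it was 0.0525, and with no block for the rat it was 0.0506. Chrnb1 lay at 68.9 to 134 TMM CPM (median 89.7) against 60.5 to 119.7 (median 76.7), and its difference of 0.21 ± 0.08 missed the threshold (adjusted p = 0.0586). It passed without rat 16 (adjusted p = 0.0314) and without rat 19 (adjusted p = 0.0403).

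**Figure D1:**
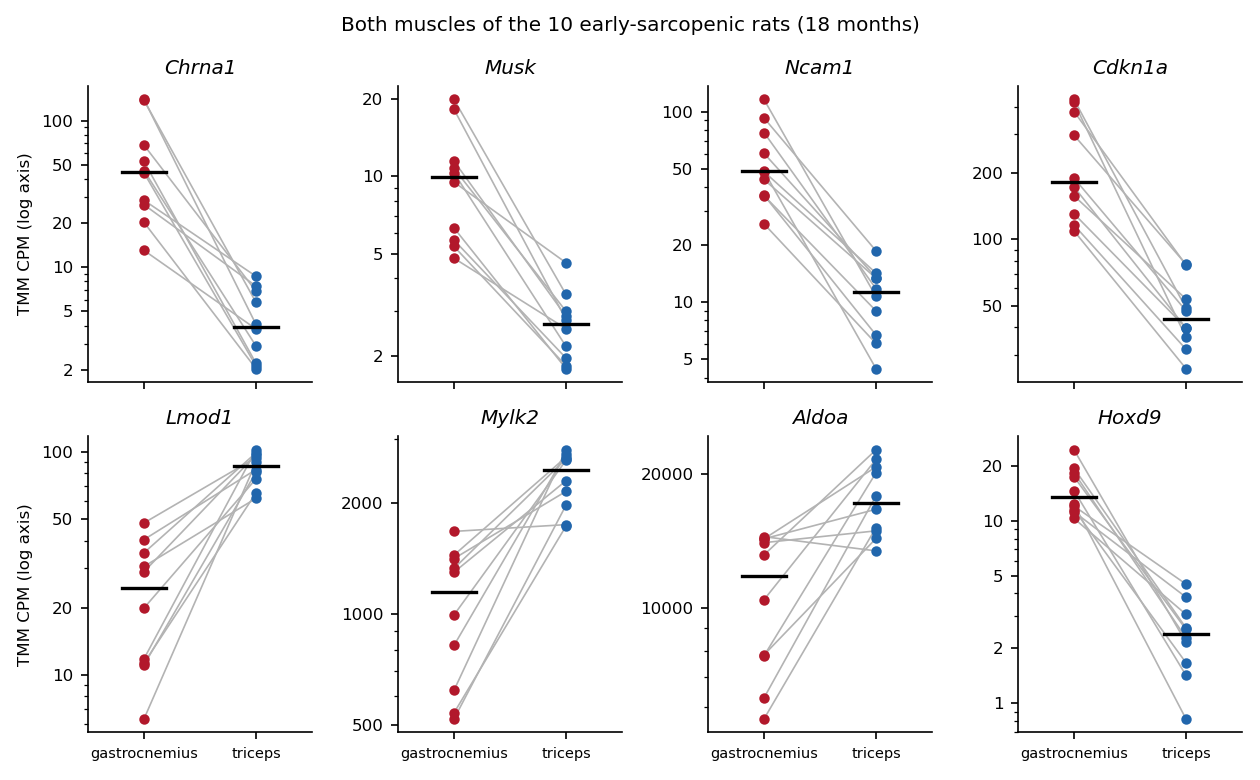
Levels of 8 genes (TMM CPM, log axis) in gastrocnemius and triceps of the 10 rats of 18 months, 1 point per library, with grey lines joining the muscles of a rat and black bars at the medians. Chrna1, Musk, Ncam1, Cdkn1a and Hoxd9 do not overlap and are higher in gastrocnemius, Lmod1 and Mylk2 do not overlap and are higher in triceps, and Aldoa overlaps, with 1 rat higher in gastrocnemius.

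Of 23 listed regulators, channels and adhesion molecules known to respond to denervation, 14 were tested, 8 were called higher in gastrocnemius and none was called higher in triceps, against 18.4% and 20.1% of genes with a symbol. The median log2 difference of the 14 was 1.04. Ncam1, a cell adhesion molecule that spreads over denervated fibres, lay at 25.7 to 116 TMM CPM (median 48.5) in gastrocnemius and 4.46 to 18.6 (median 11.2) in triceps. The muscles did not overlap, and the difference was 2.40 ± 0.25 (adjusted p = 7.18e-08). The transcription factor Runx1 lay at 9.87 to 51.4 TMM CPM (median 21.4) and 2.59 to 10.7 (median 4.64), with a difference of 2.16 ± 0.24 (adjusted p = 2.08e-07) and the higher level in gastrocnemius in all 10 rats. Hdac4, a histone deacetylase that links denervation to gene repression in muscle, lay at 33.8 to 60.2 TMM CPM (median 43.3) and 11.3 to 30.6 (median 16.8), without overlap, and differed by 1.36 ± 0.14 (adjusted p = 9.37e-08). Among the other called members were Ankrd1, a stress-responsive ankyrin repeat protein, at 2.79 ± 0.49 (adjusted p = 0.000137), and Kcnn3, a calcium-activated potassium channel, at 1.19 ± 0.16 (adjusted p = 4.33e-06). Msc, an inhibitory myogenic factor, was called at 0.89 ± 0.27 (adjusted p = 0.0185), but not without rat 11 (0.0598), rat 16 (0.0609) or rat 20 (0.0583), nor with the libraries of 18 months alone (0.0708). Bulk RNA does not tell fewer cells of a type from less RNA per cell, here and in all following results.

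Satellite cell and other marker genes were measured beside these groups. Myf5, a factor of muscle precursor cells that satellite cells express, lay at 2.16 to 7.74 TMM CPM (median 4.04) in gastrocnemius and 1.20 to 3.04 (median 2.22) in triceps and was called higher in gastrocnemius (log2 difference 0.92, adjusted p = 0.00212). The second measured satellite cell marker, Megf10, overlapped (0.21, adjusted p = 0.288), and the sum of both markers was 6.63 to 13.2 TMM CPM in gastrocnemius and 4.81 to 9.48 in triceps. The 3 endothelial markers measured, with sums of 52.6 to 113 and 62.1 to 115 TMM CPM, the 2 of mast cells, with 5.38 to 9.81 and 7.22 to 15.3, and the 1 of tendon, with 11.8 to 24.4 and 13.4 to 31.7, gave no call. Markers of fat and Schwann cells had no symbol and were not analysed here. The part of these cells in the results was not tested.

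Of 12 listed genes of the developing sarcomere and of immature fibres, 4 were tested and 2 were called higher in gastrocnemius, with a median log2 difference of 1.35; 4 genes are too few to set against the background. Krt18, a keratin, had the largest called difference among genes with a symbol whose mean level in 1 of the muscles reached 1 TMM CPM, with 0.822 to 6.99 TMM CPM (median 2.28) in gastrocnemius and 0 to 0.373 (median 0.125) in triceps. The values did not overlap, and the difference was 4.41 ± 0.51 (adjusted p = 7.68e-07). Tnnt2, the troponin T of heart and embryonic muscle, lay at 0.865 to 9.78 TMM CPM (median 5.96) and 0 to 2.61 (median 0.801), a difference of 2.37 ± 0.58 (adjusted p = 0.00418). Rat 17 was the exception for Tnnt2, with the higher level in triceps. Myh8, the perinatal myosin heavy chain, differed by 0.33 ± 0.23 and missed the threshold (adjusted p = 0.35).

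Apart from Krt18 and Chrna1, the genes with a symbol and the largest differences toward gastrocnemius belonged to none of the lists. Ctxn3, a small membrane protein, lay at 11.3 to 72.6 TMM CPM (median 26.9) against 0.590 to 3.28 (median 1.57), without overlap, and differed by 3.95 ± 0.32 (adjusted p = 4.84e-10). Slc12a3, the sodium chloride cotransporter known from the kidney, lay at 0.480 to 2.57 TMM CPM (median 1.39) and 0 to 0.614 (median 0.0481), with a difference of 3.62 ± 0.42 (adjusted p = 4.59e-07). All 10 rats had more of both transcripts in gastrocnemius. Adra1b, the alpha-1B adrenergic receptor, lay at 0.615 to 3.06 TMM CPM (median 0.882) against 0 to 0.425 (median 0.0592). The phosphatase inhibitor Ppp1r14c lay at 3.63 to 40.1 TMM CPM (median 12.1) against 0.499 to 3.06 (median 1.20). Neither overlapped between the muscles, and the differences were 3.57 ± 0.48 (adjusted p = 4.19e-06) and 3.37 ± 0.43 (adjusted p = 2.29e-06). Sdr9c7, a dehydrogenase known from the epidermis, and Slc51a, a subunit of an organic solute transporter, differed by 3.53 ± 0.52 (adjusted p = 1.54e-05) and 3.15 ± 0.35 (adjusted p = 2.53e-07), with 10 of 10 rats higher in gastrocnemius for each.

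Targets of p53 and inhibitors of cyclin-dependent kinases were higher in gastrocnemius in 10 of the 15 genes tested of 23 listed, and 1 was higher in triceps, against 18.4% and 20.1% of genes with a symbol. The median log2 difference of the 15 was 0.90, and 8 were called higher in gastrocnemius with the libraries of 18 months alone. Cdkn1a, which encodes the cell cycle inhibitor p21, lay at 109 to 432 TMM CPM (median 181) in gastrocnemius and 25.9 to 77.2 (median 43.6) in triceps. These values did not overlap, and the difference was 2.22 ± 0.26 (adjusted p = 4.37e-07). Gadd45a, a stress-response gene of the p53 and denervation lists, lay at 20.8 to 192 TMM CPM (median 63.5) and 8.80 to 28.2 (median 15.0) and differed by 2.21 ± 0.26 (adjusted p = 6.92e-07). Eda2r, a receptor of the tumour necrosis factor receptor family, lay at 16.6 to 91.3 TMM CPM (median 35.1) and 6.04 to 28.6 (median 8.88) and differed by 1.86 ± 0.26 (adjusted p = 7.78e-06). Both overlapped between the muscles but were higher in gastrocnemius in each of the 10 rats. The kinase inhibitors Cdkn2b at 1.58 ± 0.30 (adjusted p = 0.000359) and Cdkn1c at 1.08 ± 0.19 (adjusted p = 0.000173) were called as well. Sesn3 and Sesn1, stress-induced members of the sestrin family, were called in opposite directions, Sesn3 at 0.56 ± 0.09 (adjusted p = 5.44e-05) and Sesn1 at −0.32 ± 0.09 (adjusted p = 0.00807, 0.0520 with the libraries of 18 months alone).

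Genes of the mitotic cell cycle differed less. Of 37 listed genes 32 were tested, 6 were called higher in gastrocnemius and none higher in triceps, with a median log2 difference of 0.42. The share called higher in gastrocnemius is near the 18.4% of genes with a symbol, so that it is no result about these genes. The number called was 3 without rat 13 and 2 without rat 15, 16 or 20. Mki67, a marker of dividing cells, lay at 0.828 to 4.04 TMM CPM (median 2.20) in gastrocnemius and 0.243 to 2.50 (median 0.908) in triceps, a difference of 1.10 ± 0.25 (adjusted p = 0.00215). The phosphatase Cdc25a differed by 0.51 ± 0.12 (adjusted p = 0.00315), and 9 of 10 rats had the higher level in gastrocnemius for each of these 2 genes. Plk4, the kinase of centriole duplication, was called at 0.80 ± 0.24 (adjusted p = 0.0196) but not without rat 15 (0.0530), rat 16 (0.0585) or rat 20 (0.0636).

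Genes of the sarcomere, of calcium handling and of membrane excitability were higher in triceps in 12 of the 27 genes tested and higher in gastrocnemius in 4, of 30 listed. The background in the direction of triceps was 8.48% of all genes and 20.1% of genes with a symbol, while the 4 calls toward gastrocnemius were under its background of 18.4%, and the median log2 difference of the 27 was −0.31. Mylk2, the myosin light chain kinase of skeletal muscle, lay at 520.0 to 1679 TMM CPM (median 1148) in gastrocnemius and 1735 to 2795 (median 2461) in triceps. These values did not overlap, and the difference was −1.23 ± 0.17 (adjusted p = 5.16e-06). Cacna1s, the calcium channel subunit that senses voltage in the transverse tubule, lay at 595 to 1224 TMM CPM (median 904) and 1152 to 1771 (median 1359) and differed by −0.67 ± 0.11 (adjusted p = 3.86e-05), with 10 of 10 rats higher in triceps. Actn3, the alpha-actinin of fast fibres, at −1.10 ± 0.21 (adjusted p = 0.000403), the Z-disc protein Myoz1 at −1.01 ± 0.16 (adjusted p = 5.10e-05) and Atp2a1, the calcium pump of fast fibres, at −0.85 ± 0.16 (adjusted p = 0.00037) were called in the same direction. In the direction of gastrocnemius, Scn3b, a beta subunit of voltage-gated sodium channels, lay at 1.47 to 11.4 TMM CPM (median 3.91) against 0.915 to 3.01 (median 1.45) and differed by 1.52 ± 0.22 (adjusted p = 1.10e-05).

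The largest differences toward triceps among genes with a symbol were smaller than those toward gastrocnemius. Lmod1, an actin-nucleating leiomodin best known from smooth muscle, lay at 6.32 to 48.0 TMM CPM (median 24.4) in gastrocnemius and 61.9 to 102 (median 86.5) in triceps. There was no overlap, and the difference was −2.02 ± 0.22 (adjusted p = 1.51e-07). Aqp4, the water channel of the fast fibre membrane, lay at 21.5 to 162 TMM CPM (median 55.1) and 153 to 272 (median 219), with a difference of −1.61 ± 0.26 (adjusted p = 4.80e-05). In rat 13 Aqp4 was at 161 TMM CPM in gastrocnemius and 155 in triceps, and the other 9 rats had more in triceps. Mss51, a gene of fast muscle linked to mitochondrial metabolism, lay at 107 to 524 TMM CPM (median 353) and 627 to 894 (median 771) without overlap and differed by −1.46 ± 0.22 (adjusted p = 2.27e-05). The calcium-binding protein Cib2 at −1.48 ± 0.22 (adjusted p = 1.95e-05), the netrin receptor Unc5a at −1.27 ± 0.20 (adjusted p = 4.98e-05) and the unnamed gene AABR07054461.1 at −1.29 ± 0.27 (adjusted p = 0.000946) completed this group with Irx3, a homeobox gene described with the position genes.

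Glycolysis and glycogen genes were higher in triceps in 16 of the 25 genes tested, and none was called higher in gastrocnemius, against 20.1% and 18.4% of genes with a symbol. The median log2 difference of these 25, which stand for 24 symbols of 28 listed, was −0.42. Aldoa, the aldolase of muscle, lay at 5633 to 14445 TMM CPM (median 11787) in gastrocnemius and 13421 to 22625 (median 17233) in triceps, a difference of −0.77 ± 0.15 (adjusted p = 0.000299). Ldha, which makes lactate from pyruvate, lay at 769 to 1749.8 TMM CPM (median 1181) and 1425 to 2311 (median 1628) and differed by −0.60 ± 0.13 (adjusted p = 0.00166). Pfkm, the phosphofructokinase of muscle, lay at 1682 to 4228 TMM CPM (median 3251) and 3167 to 5242 (median 4722) and differed by −0.70 ± 0.16 (adjusted p = 0.00172). The ranges of all 3 genes overlapped, and 8 or 9 of 10 rats had the higher level in triceps. The number called was 10 without rat 16 and 8 without rat 15 or rat 20, and it was 8 with no block for the rat and 7 with the libraries of 18 months alone, while the median stayed negative in each of these fits. Pkm, the pyruvate kinase, stood for 2 gene IDs, and both were called, ENSRNOG00000011329 at −0.41 ± 0.14 (adjusted p = 0.0362) and ENSRNOG00000047276 at −0.42 ± 0.13 (adjusted p = 0.0277). The first was lost without rat 11, 12, 13, 15, 16 or 20 (0.0605 to 0.110) and the second without rat 13, 15, 16 or 20 (0.0587 to 0.0978), both were lost with voom, with no block for the rat and with the libraries of 18 months alone (0.0659 to 0.160), and reads of such near-identical copies are uncertain.

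Oxidative phosphorylation genes differed little at this age. Of 40 genes tested, for 39 symbols of 46 listed, none was called higher in gastrocnemius and 2 were called higher in triceps, both under the background of genes with a symbol. The median log2 difference was −0.04 with TMM factors and 0.04 with library totals, so its sign depended on the scaling. Ndufb11, a subunit of complex I, lay at 212 to 354 TMM CPM (median 317) in gastrocnemius and 288 to 482 (median 364) in triceps, with a difference of −0.31 ± 0.09 (adjusted p = 0.0184, 0.0706 without rat 16 and 0.0860 with no block for the rat). Uqcr10, a subunit of complex III, lay at 221 to 322 TMM CPM (median 291) and 259.7 to 435 (median 334) and differed by −0.28 ± 0.10 (adjusted p = 0.0425). Without rat 11, 12, 16, 17, 19 or 20 the adjusted p of Uqcr10 was between 0.0522 and 0.131. The number of called members was 1 without rat 12, 17, 19 or 20 and 0 without rat 16 or with no block for the rat.

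In the tricarboxylic acid cycle and fatty acid oxidation, 4 of 39 genes tested of 42 listed were called higher in gastrocnemius and 2 higher in triceps, with a median of 0.09. Both shares were under those of genes with a symbol (18.4% and 20.1%). Without rat 17, 7 were called higher in gastrocnemius, with library totals in place of the TMM factors 10, and with the libraries of 18 months alone 2. Cpt1b, the transferase that admits fatty acids to mitochondria, lay at 252 to 513 TMM CPM (median 413) against 234 to 372 (median 315) and was higher in gastrocnemius in 10 of 10 rats, by 0.36 ± 0.09 (adjusted p = 0.0038). The nuclear receptors Rxrg at −0.64 ± 0.13 (adjusted p = 0.000604) and Ppard at −0.33 ± 0.07 (adjusted p = 0.00127) were higher in triceps. Sterol and lipid droplet genes were called higher in gastrocnemius in 5 of 12 tested of 19 listed and higher in triceps in 1, against 18.4% and 20.1% of genes with a symbol, with a median of 0.07. Scd2, a fatty acid desaturase, lay at 79.6 to 186 TMM CPM (median 104) and 27.6 to 91.4 (median 49.2) and differed by 1.07 ± 0.19 (adjusted p = 0.000187). Plin2, which coats lipid droplets, at 0.66 ± 0.13 (adjusted p = 0.000481) and Msmo1, an enzyme of cholesterol synthesis, at 0.36 ± 0.07 (adjusted p = 0.000722) were also higher in gastrocnemius. The 1 call toward triceps, Plin4 at −0.41 ± 0.14 (adjusted p = 0.0389), was lost without rat 11, 14, 15, 16 or 20, with no block for the rat, with library totals and with the libraries of 18 months alone. The number in this direction was 0 without rat 11, 15, 16 or 20 and 2 without rat 12, 13, 17, 18 or 19.

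Extracellular matrix genes were higher in gastrocnemius in 11 of the 39 genes tested and higher in triceps in 2, for 36 symbols of 41 listed, against 18.4% and 20.1% of genes with a symbol. The median log2 difference was 0.32. The count toward gastrocnemius was 7 without rat 11, and 6 without rat 16 or with the libraries of 18 months alone, which is near or under that background. Col19a1, a collagen chain, lay at 1.23 to 7.41 TMM CPM (median 3.20) in gastrocnemius and 0.146 to 1.15 (median 0.506) in triceps, without overlap, and differed by 2.48 ± 0.37 (adjusted p = 2.01e-05). Adam19, a membrane-bound protease, lay at 23.8 to 60.4 TMM CPM (median 43.1) and 12.8 to 29.6 (median 20.8), with a difference of 1.03 ± 0.16 (adjusted p = 3.18e-05) and 9 of 10 rats higher in gastrocnemius. The fibrillar collagens did not pass the test, Col1a1 at −0.02 ± 0.27 (adjusted p = 0.965) and Col3a1 at 0.17 ± 0.20 (adjusted p = 0.621). The symbol Adamts12, a secreted protease, stood for 2 gene IDs, of which ENSRNOG00000027742 was called at 1.71 ± 0.25 (adjusted p = 1.55e-05) and ENSRNOG00000018865 was not, at 0.15 ± 0.16 (adjusted p = 0.568). For Lgals1, a galectin, the 2 IDs were called in opposite directions, ENSRNOG00000005464 at −0.54 ± 0.10 (adjusted p = 0.000137) and ENSRNOG00000009884 at 0.41 ± 0.15 (adjusted p = 0.0462). The second of these calls was lost without rat 11, 14, 15, 16, 17 or 20 (0.0564 to 0.146). Reads of near-identical copies could have been removed by the limit on mapping quality or counted for only 1 of the IDs, so these values are uncertain.

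Secreted growth factors and their antagonists went in both directions, with 5 called higher in gastrocnemius and 4 higher in triceps of 22 tested and 28 listed, and a median of 0.11. Both shares are near those of genes with a symbol (18.4% and 20.1%), so that the counts are no result about this list. Igf2, an insulin-like growth factor of developing muscle, lay at 76.4 to 193 TMM CPM (median 109) against 25.7 to 87.8 (median 60.3) and differed by 1.06 ± 0.19 (adjusted p = 0.000174). Artn, a ligand that supports neurons, lay at 0.505 to 2.73 TMM CPM (median 1.26) against 0 to 0.849 (median 0.262) and differed by 2.06 ± 0.40 (adjusted p = 0.00037). Fst, the antagonist of myostatin and activin, differed by 1.18 ± 0.25 (adjusted p = 0.00107) and Igfbp5, a binding protein of insulin-like growth factors, by 0.57 ± 0.14 (adjusted p = 0.00476). In the direction of triceps, neurotrophin-4 (Ntf4) lay at 1.22 to 3.91 TMM CPM (median 2.08) in gastrocnemius and 2.47 to 4.99 (median 3.77) in triceps and differed by −0.74 ± 0.15 (adjusted p = 0.000515), with 10 of 10 rats higher in triceps. Sema7a, a membrane-anchored semaphorin, at −0.86 ± 0.22 (adjusted p = 0.00559) and the activin chain gene Inhbc at −0.82 ± 0.17 (adjusted p = 0.000961) were called with it, Sema7a not with no block for the rat (0.0940).

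Genes of antigen presentation and immune cells were higher in gastrocnemius in 8 of the 23 genes tested and higher in triceps in 1, of 29 listed, against 18.4% and 20.1% of genes with a symbol, with a median of 0.35. The count toward gastrocnemius was 5 without rat 11 or rat 20, near the background. The 1 call toward triceps was Cd300lg, a gene known from endothelium, at −0.95 ± 0.32 (adjusted p = 0.0326), and it was lost without rat 12, 15, 17 or 20, with voom, with no block for the rat, with library totals and with the libraries of 18 months alone (0.0596 to 0.120). Nlrc5, the activator of class I antigen presentation genes, lay at 4.39 to 10.7 TMM CPM (median 6.93) in gastrocnemius and 2.21 to 3.85 (median 3.25) in triceps, without overlap, and differed by 1.18 ± 0.17 (adjusted p = 9.85e-06). B2m, the light chain of class I molecules, lay at 456 to 982 TMM CPM (median 651) and 321 to 583 (median 407) and differed by 0.66 ± 0.13 (adjusted p = 0.000387). Cd28, a costimulatory receptor of T cells, lay at 0.902 to 6.75 TMM CPM (median 3.06) and 0.255 to 1.95 (median 0.922) and differed by 1.91 ± 0.32 (adjusted p = 7.86e-05). Each of the 3 was higher in gastrocnemius in 10 of 10 rats, while the counts of the similar RT1 class I genes are uncertain. Of 4 macrophage markers measured, Irf8, which is also a member of this list, was called at 0.65 (adjusted p = 0.0192, lost without rat 11, 13 or 16 at 0.0530 to 0.0603) and Adgre1, Aif1 and Cx3cr1 were not. Their summed level was 26.6 to 53.9 TMM CPM in gastrocnemius and 20.2 to 40.0 in triceps, higher in gastrocnemius in 7 of 10 rats, and none was at 0. The part of macrophages in the immune and matrix results was not tested.

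**Figure D2:**
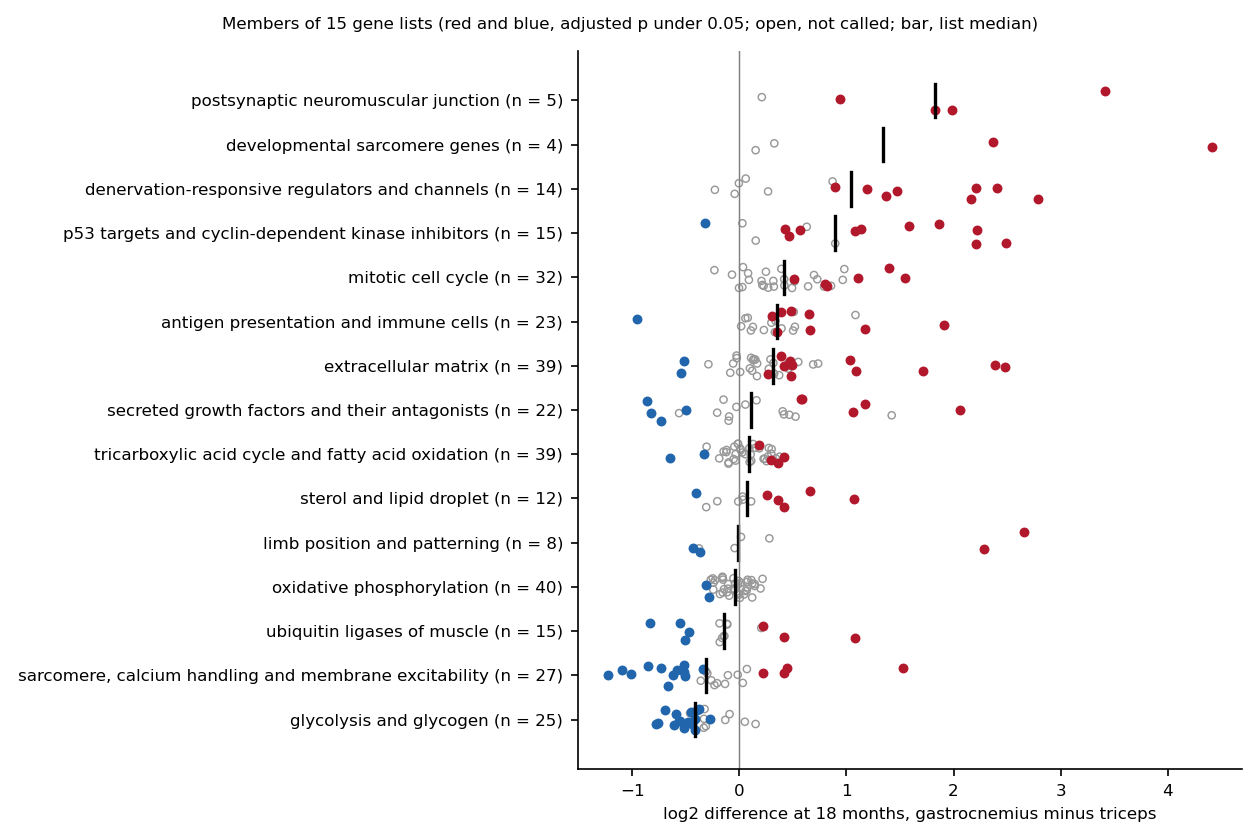
Fitted log2 difference of gastrocnemius minus triceps at 18 months for the tested members of 15 gene lists, 1 point per gene. Red and blue points were called higher in gastrocnemius and in triceps, open points were not called and bars mark list medians, which run from −0.42 for glycolysis and glycogen to 1.83 for the postsynaptic junction; the medians near 0 for oxidative phosphorylation and limb position change sign with library totals in place of TMM factors.

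Genes of limb position and patterning differed in both directions. Hoxd8, a homeobox gene of the D cluster, lay at 4.98 to 11.8 TMM CPM (median 7.56) in gastrocnemius and 0.746 to 3.25 (median 1.52) in triceps, and its neighbour Hoxd9 at 10.3 to 24.5 (median 13.5) and 0.821 to 4.50 (median 2.41). Neither overlapped, and the differences were 2.29 ± 0.19 (adjusted p = 4.84e-10) and 2.65 ± 0.23 (adjusted p = 1.83e-09). The homeobox gene Irx3 was higher in triceps in all 10 rats, at 0.632 to 3.28 TMM CPM (median 1.92) against 1.73 to 6.77 (median 4.55), a difference of −1.32 ± 0.26 (adjusted p = 0.000547). Of the 8 genes tested in the list of 25, 2 were called in each direction, near the background of genes with a symbol, and the median was −0.01 with TMM factors and 0.08 with library totals. The calls toward triceps, Barx2 at −0.43 ± 0.13 (adjusted p = 0.0181) and Eya1 at −0.37 ± 0.13 (adjusted p = 0.0421), were less stable. Their number was 1 without rat 11 or 13 and 0 without rat 15, 16 or 20 and with no block for the rat.

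Among ubiquitin ligases of muscle, 3 were called higher in gastrocnemius and 4 higher in triceps of 15 tested and 17 listed, with a median of −0.15. Both shares are near those of genes with a symbol (18.4% and 20.1%), so that the counts are no result about the ligases, and the count toward gastrocnemius was 1 with the libraries of 18 months alone. Fbxo30, an F-box ligase component known from muscle atrophy, lay at 15.1 to 61.8 TMM CPM (median 33.5) against 9.98 to 23.3 (median 16.6) and differed by 1.08 ± 0.14 (adjusted p = 2.48e-06), with 10 of 10 rats higher in gastrocnemius. The ankyrin repeat and SOCS box gene Asb11 lay at 52.7 to 111 TMM CPM (median 88.3) in gastrocnemius and 126 to 182 (median 151) in triceps, without overlap, and differed by −0.84 ± 0.14 (adjusted p = 8.44e-05). Asb14 at −0.47 ± 0.08 (adjusted p = 0.000106), Asb10 at −0.56 ± 0.12 (adjusted p = 0.00155) and Asb4 at −0.50 ± 0.14 (adjusted p = 0.01) were called in the same direction, Asb4 not with no block for the rat (0.155).

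Rats of 18 months differed in how far their muscles stood apart. The median over the 5 junction genes of the difference in log2(TMM CPM + 0.5) was positive in all 10 rats, from 0.71 in rat 19 to 1.79 in rat 12. The 14 denervation-responsive genes had positive medians in all 10 rats, from 0.43 in rat 19 to 1.53 in rat 11, as did the 15 genes of p53 targets and kinase inhibitors, from 0.30 in rat 12 to 1.06 in rat 11. In contrast, the median of the glycolysis genes ran from −1.07 in rat 20 to 0.25 in rat 17 and was negative in 7 of 10 rats. The oxidative phosphorylation genes had medians from −0.42 in rat 16 to 0.53 in rat 13, negative in 6 rats. Rat 17 had the highest medians for the glycolysis, sarcomere and ubiquitin ligase lists, all positive, and the lowest for the matrix, mitotic and developmental sarcomere lists, all negative.

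Over the 246 called genes that were more than 2-fold higher in gastrocnemius and whose mean level in 1 of the muscles reached 1 TMM CPM, 206 to 245 had the higher level in gastrocnemius in 9 of the rats and 147 in rat 17. Their median difference was 0.36 in rat 17 and reached 1.88 in rat 20 and 1.84 in rat 11. These genes were chosen on the same values, so the counts describe the rats and test nothing. Without rat 17, 3186 genes were called in place of 2692, and without rat 16 there were 2017. Of the 2692 genes, 1642 were called with each rat left out, and 657 had the same direction in all 10 rats.

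**Figure D3:**
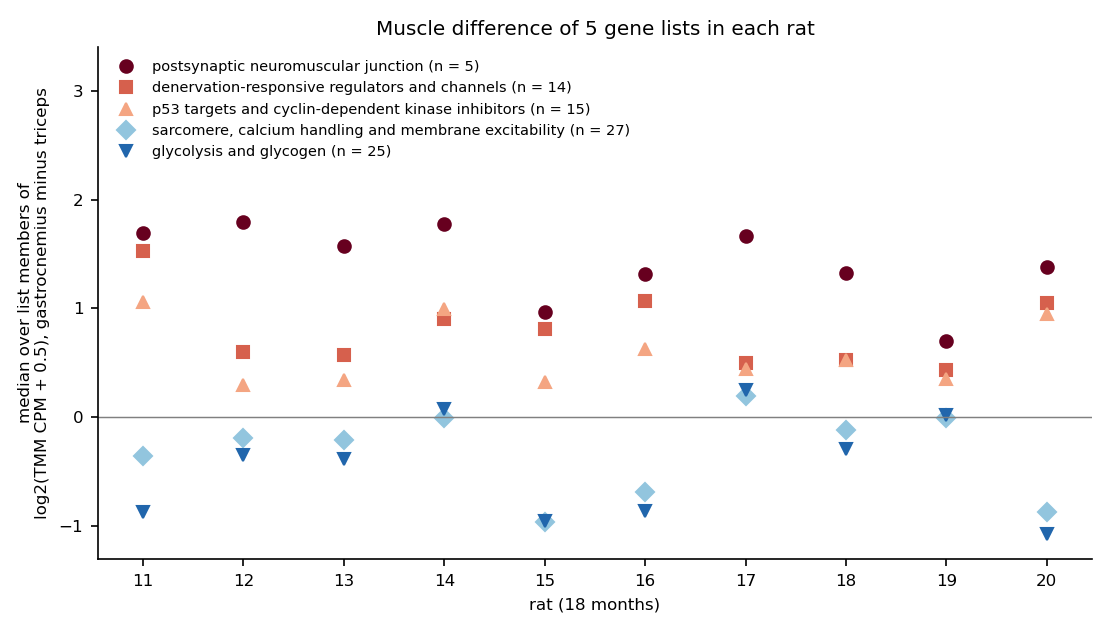
Median over the members of 5 gene lists of the difference in log2(TMM CPM + 0.5), gastrocnemius minus triceps, for each of the 10 rats of 18 months. The junction, denervation and p53 lists are above 0 in every rat, and the glycolysis list runs from −1.07 in rat 20 to 0.25 in rat 17.

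The muscle difference was then set beside that of adult and sarcopenic rats, in the same fit. At 8 months 622 genes differed between the muscles (4.16% of genes tested), and at 24 months 5140 (34.4%). Of the 2692 genes of early-sarcopenic rats, 410 were called with the same sign in adult rats, which is 15.2% of the genes of 18 months and 65.9% of those of 8 months. With sarcopenic rats 2061 were shared, 76.6% of the genes of 18 months and 40.1% of those of 24 months. A call of the opposite sign was found for 1 gene at 8 months and for 2 genes at 24 months.

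For the lists with the largest differences at 18 months, medians in adult rats were small. Genes with a symbol were selected by the study for a different change with age in the 2 muscles, so that such a pattern is in part fixed by that choice and is given as a description. For the junction genes the median log2 difference was 0.15 at 8 months and 2.29 at 24 months, for the denervation-responsive genes 0.13 and 1.46, and for p53 targets and kinase inhibitors −0.10 and 1.44. No member of these 3 lists was called higher in gastrocnemius at 8 months, against 2.31% of all genes and 3.42% of genes with a symbol at that age. Glycolysis genes had medians of −0.17 at 8 months and −0.97 at 24 months, with 0 of 25 called higher in triceps at 8 months, against 1.85% of all genes and 3.52% of genes with a symbol, and 23 of 25 at 24 months, against 18.1% and 51.2%. Oxidative phosphorylation genes had medians of 0.22 and −0.37. At 8 months 3 of 40 were called higher in gastrocnemius, against 3.42% of genes with a symbol. At 24 months 30 of 40 were called higher in triceps, against 51.2%. Few of these genes were called in either direction at 8 months or at 18 months. For genes of the tricarboxylic acid cycle and fatty acid oxidation, 11 of 39 were called higher in gastrocnemius at 8 months and 19 of 39 higher in triceps at 24 months, the latter near the background. At 24 months 36.8% of genes with a symbol were called higher in gastrocnemius, against 16.3% of all genes. Hoxd8 and Hoxd9 differed already in adult rats, at 2.54, 2.29 and 1.63 at the 3 ages for Hoxd8 and 3.19, 2.65 and 1.99 for Hoxd9. Irx3, which is outside the list, had −1.16, −1.32 and 0.31, and Barx2 and Eya1 were not called at 8 months.

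Levels at the 3 ages show in which muscle these genes varied. The median of Chrna1 in gastrocnemius was 6.51 TMM CPM at 8 months, 44.8 at 18 months and 155 at 24 months, against 3.55, 3.93 and 11.4 in triceps. For Cdkn1a the medians were 25.1, 181 and 628 in gastrocnemius and 24.4, 43.6 and 106 in triceps. For Mylk2 they were 1491, 1148 and 430.4 in gastrocnemius and 2408, 2461 and 1691 in triceps. In triceps, the medians of all 3 genes at 18 months lay within the range of the adult triceps libraries.

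**Figure D4:**
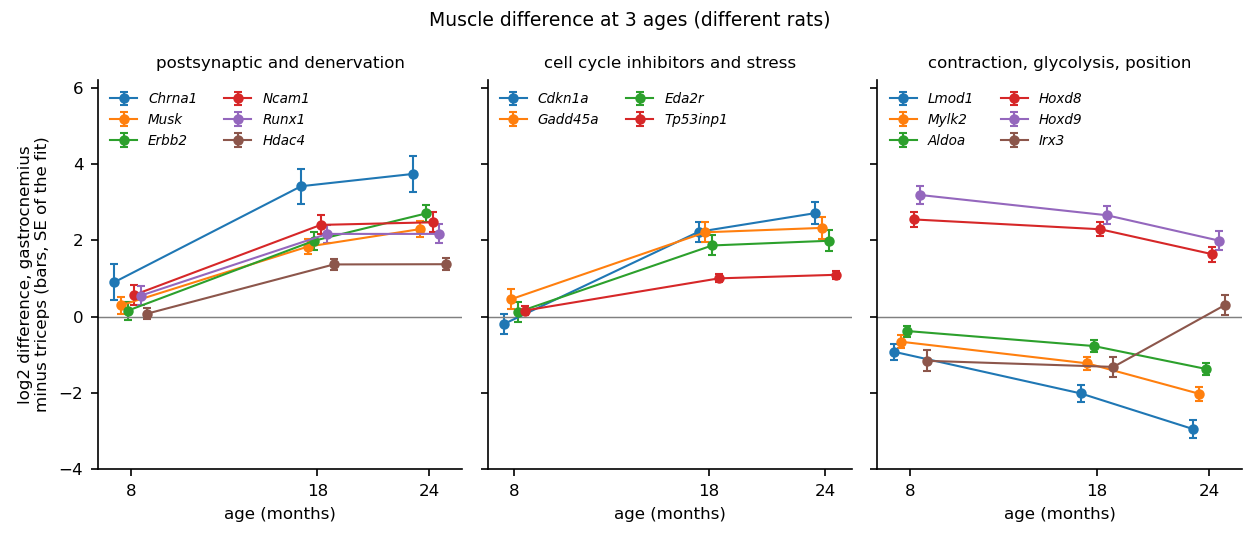
Fitted log2 difference of gastrocnemius minus triceps at 8, 18 and 24 months (points with SE derived from F, n = 10, 10 and 9 rats) for genes of the junction and denervation, of p53 targets, and of contraction, glycolysis and limb position. Chrna1 and Cdkn1a are near 0.90 and −0.19 at 8 months and at 3.42 and 2.22 at 18 months, whereas Hoxd8 and Hoxd9 are at 1.63 or higher at every age.

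Whether the muscle difference of early-sarcopenic rats differed from that of adult rats was tested directly, as the difference at 18 months minus that at 8 months. This test shares the libraries of 18 months with the comparison above. It called 47 of 14947 genes (0.314%), 42 in the direction of gastrocnemius (0.281%) and 5 in the direction of triceps (0.0335%). The smallest adjusted p belonged to Cdkn1a, with a change of 2.41 ± 0.36 (adjusted p = 0.00141, edgeR), from −0.19 at 8 to 2.22 at 18 months. Among junction and denervation genes it called Erbb2 at 1.84 ± 0.34 (adjusted p = 0.0106), Musk at 1.54 ± 0.30 (adjusted p = 0.016), Ncam1 at 1.84 ± 0.35 (adjusted p = 0.0145) and Hdac4 at 1.29 ± 0.20 (adjusted p = 0.00252). With voom, Ncam1 and Hdac4 were called, while Erbb2 (0.129) and Musk (0.139) were not, and Musk reached 0.0562 with 1 rat left out. The change of Chrna1, 2.51 ± 0.65, missed the threshold (adjusted p = 0.0921).

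Further genes with the smallest p were Ctxn3 at 3.28 ± 0.49 (adjusted p = 0.00141), Tmem158 at 2.80 ± 0.50 (adjusted p = 0.00985) and Trim37, a ubiquitin ligase, at 1.08 ± 0.19 (adjusted p = 0.00978). The kinase Aak1, which acts on clathrin adaptors, changed by 0.72 ± 0.12 (adjusted p = 0.00295), and Tp53inp1, a p53-induced nuclear protein, by 0.84 ± 0.15 (adjusted p = 0.00995). With voom, Aak1 (0.129), Tp53inp1 (0.225) and Tmem158 (0.139) were not called, and with no block for the rat Aak1 (0.192) and Tp53inp1 (0.320) were not. Tmem158 lay at 5.55 to 56.5 TMM CPM (median 12.8) in gastrocnemius and 1.17 to 5.05 (median 2.10) in triceps at 18 months, without overlap, and its muscle difference was 0.25 at 8 months. The 5 genes in the other direction were Dtnbp1 at −0.43 ± 0.09, Snx3 at −0.38 ± 0.08, Bnip1 at −0.42 ± 0.09, Bphl at −0.58 ± 0.13 and Syngr1 at −0.50 ± 0.12, with adjusted p-values of 0.0315 to 0.0499. They were called in 11, 7, 7, 6 and 4 of 20 fits with 1 rat left out, and none of them with voom (0.225 to 0.297) or with no block for the rat (0.418 to 0.509). Snx3, Bnip1, Dtnbp1 and Syngr1 have known roles in membrane traffic, which was not tested as a group. All 5 genes were lower in gastrocnemius in 10 of 10 rats of 18 months.

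The median muscle difference of the 47 genes was −0.01 at 8 months and 1.08 at 18 months. These values follow in part from the choice of the genes and test nothing. In sarcopenic rats, which did not enter this contrast but shared the estimate of the spread, the median was 1.35. With no block for the rat 25 genes were called, 22 of them among the 47, and with voom 8, all among the 47. The size of this set depended on single animals. With 1 rat of either age left out in turn the count was between 13, without rat 20, and 59, without rat 13. It moved by more than 1.5 times without rat 1 (26), 3 (24), 4 (22), 5 (23), 6 (18), 9 (26), 10 (20), 11 (24), 15 (19) and 20 (13). The 12 genes called in every one of these 20 fits were Cdkn1a, Ctxn3, Hdac4, Aak1, Trim37, Tmem158, Tp53inp1, Erbb2, Ncam1, Tgfb2, RGD1560175 and Sesn3.

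**Figure D5:**
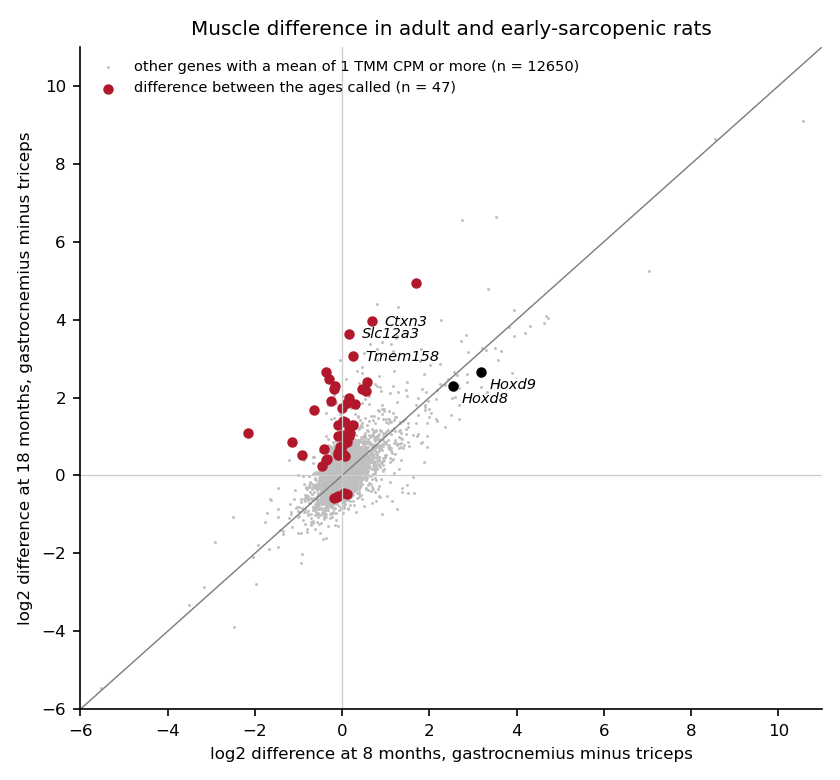
Fitted log2 difference of gastrocnemius minus triceps in adult rats of 8 months (x axis) and in early-sarcopenic rats of 18 months (y axis) for 12650 genes whose mean level reached 1 TMM CPM (grey) and the 47 genes whose difference was called to differ between the ages (red), with the line of equal differences. Ctxn3, Tmem158 and Slc12a3 lie far above the line, and Hoxd8 and Hoxd9 (black) lie just under it.

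Between 18 and 24 months no gene was called by the same test, with 1827 genes at an unadjusted p under 0.05 and a smallest adjusted p of 0.0627. DESeq2 called 163 genes, 15 in the direction of gastrocnemius and 148 in the direction of triceps, and limma's voom 4. Leaving out 1 rat in turn gave counts of 139 without rat 47, 123 without rat 20, 19 without rat 11, 17 without rat 15, 7 without rat 42, 5 without rat 14, 3 without rat 50, 2 without rat 16 and 1 without rat 44, and 0 otherwise. At 24 months 4.38% of all genes were called and more than 2-fold higher in gastrocnemius and 1.87% in triceps. Of such genes in gastrocnemius, 432 had a mean level that reached 1 TMM CPM. Their difference was called in other rats, but with a shared estimate of the spread, so the values at 18 months are given as a description. Their median difference was 0.32 at 8, 1.00 at 18 and 1.45 at 24 months. At 18 months 306 of them were called, against 18% of all genes in either direction. The 225 such genes in triceps had medians of −0.31, −0.67 and −1.26, and 161 were called at 18 months, against the same 18%. At 8 months 0.95% of all genes were more than 2-fold higher in gastrocnemius, and for the 121 of them that reached the same level the medians were 1.82, 1.54 and 0.99. In each set the median at the age used for the choice is made larger by that choice.

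Of the genes without a symbol, the 2 with the largest differences in each direction are given by their Ensembl identifiers, and the reads of 3 of these 4 came almost wholly from 1 muscle. ENSRNOG00000016149 had 500 to 1104 reads in each gastrocnemius library, 8135 in all, and 12 in triceps, where 8 libraries had none, rat 19 had 1 and rat 20 had 11. ENSRNOG00000016141 had 97 to 270 reads in each gastrocnemius library, 1853 in all, and 3 in triceps, each of them in rat 20. The ratio of reads per total was 628 for the first (359 to 1216) and 572 for the second (196 to 2778), where the ranges are 95% intervals by Clopper and Pearson and reflect counting error alone. The presence of both in the triceps library of rat 20 was measured, and its source was not tested. In the other direction, ENSRNOG00000001399 had 5 to 35 reads in each triceps library, 188 in all, and 4 in gastrocnemius, where 7 libraries had none and rat 16 had 2, a ratio of 50.7 (19.5 to 188). ENSRNOG00000028981 was uneven, with 0 to 112 reads per library and 239 in all in triceps, and 20 in gastrocnemius, of which 11 came from rat 15, a ratio of 12.9. Rat 13 had 5 reads in gastrocnemius and 0 in triceps, and rats 14 and 16 had none in either. Its fitted difference was −3.88 ± 1.03 (adjusted p = 0.00929, edgeR) and −4.57 without rat 13, and it was not called with voom (0.126).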

How the data were processed

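The sources used here state that RNA from both muscles of each rat was prepared with miRNeasy, made into libraries with TruSeq RNA v2 after poly(A) selection and sequenced as paired reads. The authors aligned the reads with STAR 2.3.0e to Rnor_6.0 and allowed up to 3 mapping places per read in that step. They then removed mapped reads with a quality under 30 and counted the rest with HTSeq in union mode. The deposited values are raw read counts for 32545 Ensembl genes in 58 libraries. The strand option and the Ensembl release are not given in the sources used here, so genes that overlap others or have antisense partners are uncertain. Symbols were read from the gene table of the study for 2161 IDs.

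Counts were fitted in R 4.3.3 with edgeR 4.0.16 (quasi-likelihood F test) on all 58 libraries, with a term for each of the 29 rats and the muscle difference at each age. Genes that reached 20 reads in any library, 14947 in all, were tested with TMM factors, and p-values were adjusted by Benjamini and Hochberg over all of them. The 18-month difference rests on the 10 rats of that age, while all libraries share the estimate of the spread. The animal label pairs the muscles of a rat. Over 12562 genes, deviations from the group means had a mean correlation of 0.172 within rats of 18 months (−0.213 to 0.508, over 0.1 in 7 of 10) and −0.0181 between rats. In 3 of the 10 rats the gastrocnemius library correlated best with the triceps library of the same rat. No batch is given in the labels.

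The gene lists and the comparison itself were chosen with earlier results of these data known. Genes named were the 8 largest in each direction with a symbol, a call, a mean level of 1 TMM CPM or more in either muscle and a stable sign without each rat, every postsynaptic gene tested, up to 3 called members per list by p, the 8 smallest p for 18 against 8 months and 2 IDs without a symbol in each direction. Other members and the genes toward triceps at 18 against 8 months were named after their values were seen. Alternatives were DESeq2 1.42.0, voom in limma 3.58.1 with the within-animal correlation, RLE and upper quartile factors, filterByExpr, no filter, the libraries of the ages compared alone, no block, a 2-fold limit and each rat left out. Scaling by library totals alone was added later, after seeing the data. In data simulated for the comparison at 18 months, with 14722 genes, 52 of 67 genes changed 1.5-fold, 63 of 67 changed 2-fold and 65 of 66 changed 4-fold were recovered, with 9 false calls. Each gene was simulated with the same spread at all ages. The simulation therefore cannot test whether the estimate of the spread can be shared between ages. Depth was 12767191 to 32351192 reads in the 20 libraries compared, and the spread between rats sets the precision. Per the labels each sample is 1 muscle of 1 rat. Histology, quantitative PCR and human data were not analysed here.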

Additional observations from a re-analysis of the deposited data

Results flagged for a closer look

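In 5 of the 66 genes named, 1 rat of 18 months stood apart from the other 9 in the difference of log2(TMM CPM + 0.5) between its muscles, by Dixon's criterion, which chance meets in about 1 in 20 groups. Sdr9c7 had 3.04 in rat 15, against 0.72 to 1.92 in the others. Igf2 had 2.88 in rat 11, against 0.14 to 1.59. Ntf4 had −1.55 in rat 15, against −0.82 to −0.17. Rat 20 had 4.72 for ENSRNOG00000016149, against 5.92 to 6.59, and 3.67 for ENSRNOG00000016141, against 4.03 to 4.33, and its triceps library held 11 of the 12 and 3 of the 3 triceps reads of these genes.

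The difference between the muscles itself differed between 18 and 8 months in 47 genes by edgeR's test of the difference. Among the genes named, the log2 muscle difference at 18 minus 8 months was 2.41 for Cdkn1a, 1.75 for Gadd45a, 1.75 for Eda2r and 0.84 for Tp53inp1 among p53 targets and stress genes. Of junction and denervation genes it was 1.54 for Musk, 1.84 for Erbb2, 1.84 for Ncam1, 1.29 for Hdac4 and 1.62 for Runx1. It was 2.79 for the collagen gene Col19a1, 1.04 for the protease gene Adam19, 2.17 for the T cell costimulatory receptor gene Cd28 and 0.90 for the ligase gene Fbxo30. The other genes were Ctxn3 with 3.28, Slc12a3 with 3.46, Tmem158 with 2.80, Trim37 with 1.08 and Aak1 with 0.72. Of these 18 genes, 12 were not called with voom and 5 not with no block for the rat, and 9 lost the call in at least 1 of 20 fits with 1 rat left out. Fbxo30 was called in 6 of those fits, Adam19 in 8, Runx1 in 9, Eda2r and Cd28 in 10, Gadd45a in 12, Slc12a3 in 15 and Musk and Col19a1 in 19. With voom the adjusted p was 0.225 for Col19a1, 0.103 for Cd28, 0.129 for Fbxo30 and 0.0521 for Adam19.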

How the results depend on the processing

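The 2692 genes called at 18 months were 2260 to 3051 under DESeq2, voom, other factors, library totals and other filters, 2057 with no block for the rat and 1474 with the libraries of 18 months alone. With a 2-fold limit there were 429. Leaving out 1 rat gave 2017, without rat 16, to 3186, without rat 17. With the libraries of 18 months alone, 7 glycolysis, 6 matrix and 2 mitotic genes were called in the direction given for these lists. Toward gastrocnemius, 4 sarcomere genes became 2, 3 ubiquitin ligases became 1 and 4 genes of the tricarboxylic acid cycle and fatty acid oxidation became 2. Toward triceps, the 2 calls of oxidative phosphorylation and the 1 call each of p53 targets, immune and sterol genes became 0, and the 2 of limb position became 1. The 47 genes of 18 against 8 months were 132 with DESeq2, 8 with voom, 25 with no block and 28 with the 2-fold limit, and 13 to 59 with 1 rat left out. Between 24 and 18 months, 0 genes became 163 with DESeq2, 4 with voom, 4 with no filter, 5 with library totals and 0 to 139 with 1 rat left out. The causes of these changes were not tested. The 2-fold limit removes calls by its definition. For the 18-month difference of the 66 named genes under 19 alternatives, 1254 values in all, 28 lost and 3 gained the call and none changed direction. The calls of 18 against 8 months were less stable: of 47 genes, 35 lost the call in at least 1 of 20 fits with 1 rat left out and 39 with voom. Beside those in the report, further named genes changed their call for the 18-month difference. Chrne and Plk4 lost it with the libraries of the ages compared alone (adjusted p = 0.0614 and 0.0708), as did Ndufb11 (0.0578). Uqcr10 lost it there and with voom, no filter or library totals (0.0619 to 0.0941). Barx2 (0.124) and ENSRNOG00000028981 (0.126) lost it with voom, and Chrnb1 gained it with library totals (0.0135). All these values are from fits across all genes. Depth limits genes with few reads. ENSRNOG00000028981 was in addition uneven between rats, with 0 to 112 reads per triceps library, and the cause was not tested.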
